A study of Rattus norvegicus with 23 samples.

Results

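The EGF receptor family and its ligands were followed through 23 RNA-seq libraries of rat kidney cells at normal and at acidic pH. The 10 genes were taken by symbol from the deposited count table, which holds 30452 genes. They comprise 3 receptors (Egfr, Erbb2, Erbb3) and 7 ligands (Hbegf, Tgfa, Areg, Ereg, Btc, Egf, Nrg1), and each symbol had 1 row. NRKE cells (NRK-52E) are an established line of normal rat kidney epithelial cells, and NRKF cells (NRK-49F) are normal rat kidney fibroblasts. Both carry no engineered allele in the labels. Serum was withheld from both for 24 h, after which pH 7.4 or pH 6.0, set with hydrochloric acid, was applied for 48 h. The comparisons ask how such acidosis changes the transcripts and whether epithelial cells and fibroblasts respond alike. There were n = 6 samples of NRKE cells at each pH, n = 6 of NRKF cells at pH 7.4 and n = 5 of NRKF cells at pH 6.0. The labels further place them in sample groups, 1 and 3 for NRKE and 4 and 6 for NRKF, each holding both pH values, without saying what a sample group is. Single libraries are named by the codes of the labels, such as A021.

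ErbB receptors are tyrosine kinases of the cell surface that pair up when a ligand binds and then drive the RAS, MEK and ERK cascade and the PI3K and AKT pathway. Erbb2 binds no ligand of its own and serves as a partner, while Erbb3 has a weak kinase and signals through its partners. The ligands are made as membrane-bound precursors and released by ADAM proteases, and in the kidney this system takes part in tubular growth, repair and fibrosis.

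Total counts per library ranged from 16412564 to 34250535, and 14777 genes passed the filter for sufficient counts. All 10 genes passed it, Erbb3 and Ereg through their counts in NRKE cells alone. Levels are given as FPM, counts per 1000000 counts of a library, after scaling by edgeR's TMM factors, not divided by transcript length, so levels of different genes are not compared. An FPM is a share of the RNA of a culture, so fewer cells that carry a transcript and less of it per cell cannot be told apart. The labelled epithelial type was not borne out by most of its defining markers. In NRKE cells Epcam, Esrp1, Cldn4, Cldn7, Grhl2 and Krt18 had at most 3 counts in any sample, and Cdh1 had at most 12. Krt7 (21.8 against 1.42 FPM) and Rab25 (2.15 against 0.303 FPM) had higher means in NRKE than in NRKF cells at pH 7.4. Krt8 (499 against 839 FPM) and Esrp2 (0.0916 against 0.622 FPM) had lower means in NRKE cells. The 11 epithelial markers in the table summed to 464 to 685 FPM in NRKE samples at pH 7.4 and to 669 to 1208 FPM in NRKF samples at pH 7.4, nearly all of it from Krt8. At pH 6.0 these sums were 199.9 to 266 FPM and 438 to 697 FPM. The 12 fibroblast markers summed to 4982 to 8160 FPM in NRKE cells at pH 7.4, mostly Col3a1, and to 1842 to 3120 FPM at pH 6.0, against 10790 to 13747 FPM and 7337 to 9895 FPM in NRKF cells. Of these 12, Col3a1 had a higher mean in NRKE than in NRKF cells at pH 7.4 (6149 against 1212 FPM), and Fap and Thy1 were near 0 in both. The others were lower in NRKE cells, such as Pdgfra (1.83 against 306 FPM), Col1a1 (58.1 against 5877 FPM) and Prrx1 (0.897 against 195 FPM). The part of these marker levels in the differences below was not tested. Among NRKE libraries, A021 had the highest share of 4 fibroblast transcripts, 1.18% to 2.37% of their mean in NRKF cells at pH 7.4, and among NRKF libraries A051 had the highest share of Erbb3, Krt7 and Epgn, 7.85% to 10.3% of their mean in NRKE cells at pH 7.4, while Rab25 was highest in A040 (26.8%). These genes were chosen after their values were seen, and results that rest on either library are given without both.

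Erbb3 and Ereg were counted mainly in NRKE cells. The difference between the acid responses of the lines was called for 6 of the 10 members, beside 41.4% of all tested genes. The call of Ereg rests on 3 counts in NRKF cells at pH 6.0, and Erbb2, Erbb3, Tgfa and Areg were not called. At pH 6.0 NRKE cells had more Tgfa and Ereg and less Egfr, Erbb2, Btc, Egf and Nrg1 than at pH 7.4. NRKF cells at pH 6.0 had less Btc, Hbegf and Erbb2, and no member was called higher. Of the 10 members, 7 passed the threshold in NRKE cells (2 higher, 5 lower), where 61.2% of all tested genes did (24.7% higher and 36.6% lower), and 3 passed it in NRKF cells (all lower), where 28.9% of all tested genes did and 14.4% were lower. The threshold throughout was an edgeR adjusted p under 0.05, meaning the quasi-likelihood test after Benjamini-Hochberg adjustment over all tested genes. The median log2 fold change of the members was -0.58 in NRKE cells and -0.35 in NRKF cells, against -0.12 and 0.000875 over all tested genes. The NRKF median lies between the values of Erbb3 (-0.25) and Areg (-0.44), neither of them called. It also includes Ereg, and both Erbb3 and Ereg had few counts in NRKF cells. No overlap between the samples of both pH values was found for 4 members in NRKE cells and 3 in NRKF cells, beside 38.6% and 20.6% of all tested genes. Within sample groups 1, 3, 4 and 6 the members called were 7, 7, 3 and 5, where 47.5%, 55.9%, 21.9% and 20.2% of 15478 tested genes were called. Those in group 6 include Ereg, which had no count there at pH 6.0. The paper calls its samples biological, and the labels do not say whether those of a condition were separate cultures. All p-values therefore measure only the spread between these samples, which may be technical.

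**Figure D1:**
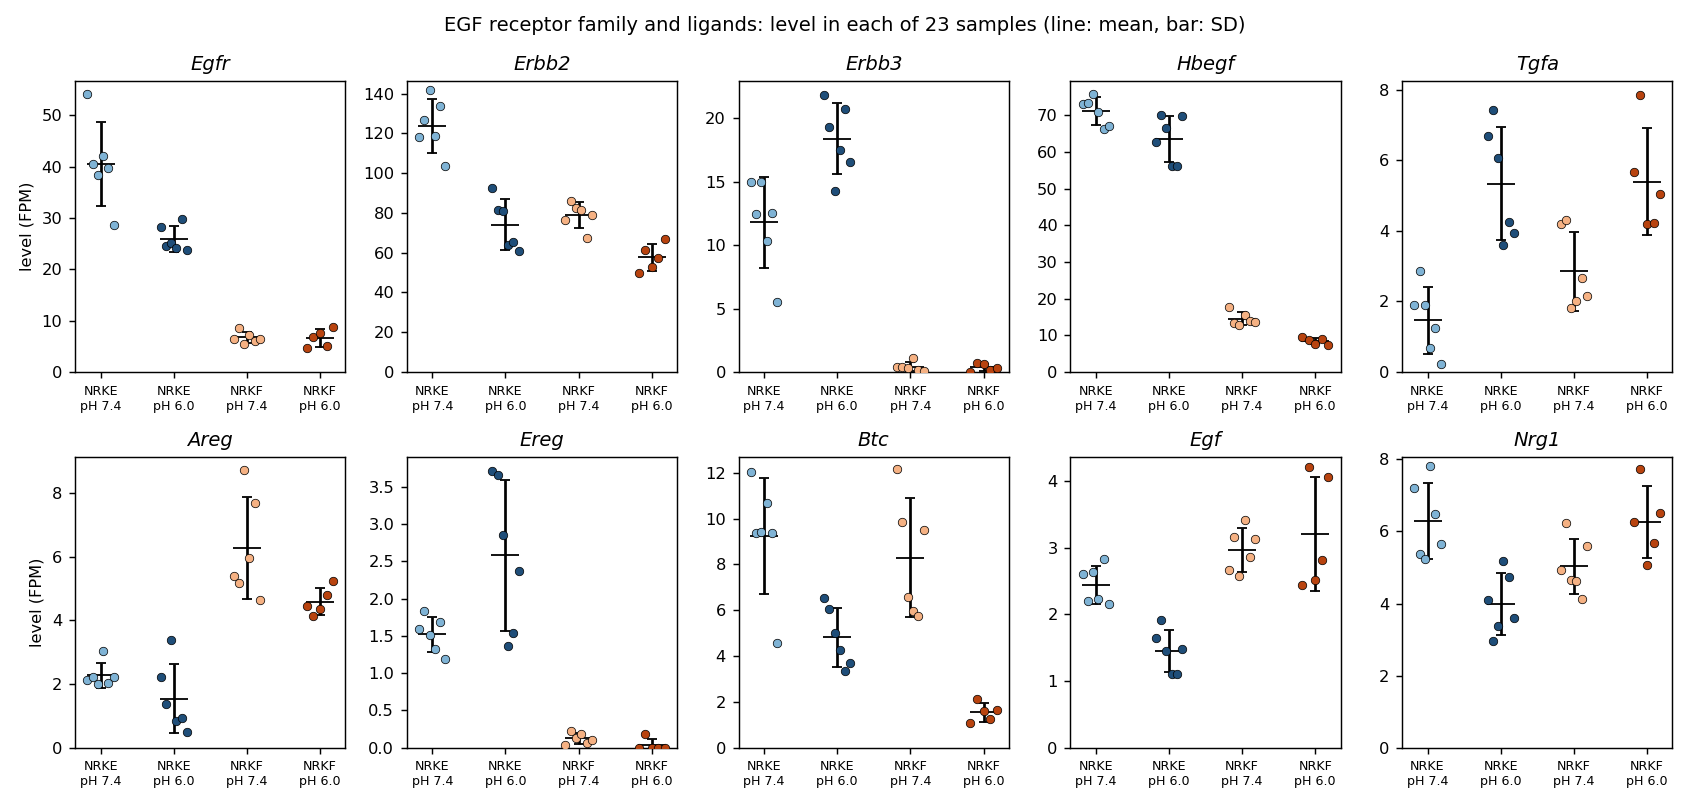
Level of each gene in FPM (vertical axis, from 0) in each of the 23 samples (points) by cell line and pH, with the mean (line) and SD (bar). Erbb3 and Ereg stay near 0 in NRKF cells, Btc is lowest in NRKF cells at pH 6.0 (1.07 to 2.13 FPM), and Tgfa is lowest in NRKE cells at pH 7.4.

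The 250 bases before the gene start are printed for 4 of the genes on which the results turn. Btc and Areg are near neighbours on chromosome 14, and Hbegf and Egfr had large and well-measured differences between the lines. The sequences are from RefSeq (assembly GRCr8, which is not the build of the counts), written 5′ to 3′ on the strand of the gene in lower case, with motif matches in capitals. Of the 10 genes 7 were matched, and Erbb3, Ereg and Nrg1 were not.
Egfr (chr14:95378376-95378625, + strand): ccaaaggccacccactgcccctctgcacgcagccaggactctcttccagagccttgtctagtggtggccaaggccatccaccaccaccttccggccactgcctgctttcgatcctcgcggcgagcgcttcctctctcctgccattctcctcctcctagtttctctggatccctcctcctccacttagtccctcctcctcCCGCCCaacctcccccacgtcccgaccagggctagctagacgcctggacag
Hbegf (chr18:28390221-28390470, - strand): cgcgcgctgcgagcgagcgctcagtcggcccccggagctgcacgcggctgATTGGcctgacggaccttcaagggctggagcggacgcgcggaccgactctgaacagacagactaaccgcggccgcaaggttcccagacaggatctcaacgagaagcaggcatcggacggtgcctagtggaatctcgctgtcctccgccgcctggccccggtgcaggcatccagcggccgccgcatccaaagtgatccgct
Btc (chr14:16992418-16992667, + strand): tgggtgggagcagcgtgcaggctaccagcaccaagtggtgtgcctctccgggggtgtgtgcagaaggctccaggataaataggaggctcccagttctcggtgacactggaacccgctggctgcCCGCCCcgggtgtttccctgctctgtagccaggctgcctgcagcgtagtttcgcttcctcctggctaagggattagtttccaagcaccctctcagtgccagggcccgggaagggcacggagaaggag
Areg (chr14:17265642-17265891, - strand): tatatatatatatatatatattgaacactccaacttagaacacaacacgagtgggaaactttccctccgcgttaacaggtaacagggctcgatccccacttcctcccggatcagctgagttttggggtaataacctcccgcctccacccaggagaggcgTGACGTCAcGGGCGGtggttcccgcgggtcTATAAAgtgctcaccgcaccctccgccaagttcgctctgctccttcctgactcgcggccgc
Motifs were searched on both strands in the 250 bases before the gene start, and no matches overlapped. Areg held a TATA box (TATAAA, present in 12.9% of 33469 promoter windows), a GC box (GGGCGG, 30.5%) and a cyclic AMP response element (TGACGTCA, 1.59%). The 33469 windows also hold 250 bases each, but some, such as those of Erbb2, Tgfa and Egf, reach past the gene start. Egfr and Btc each held 1 GC box, on the other strand, and Hbegf held a CCAAT box (CCAAT, 34%), also on the other strand. None of these 4 windows held an AP-1 motif (TGANTCA, 6.34%), an E-box (CACGTG, 5.59%) or the core of the element bound by ATF4 (TGATGNAA, 3.4%). Their GC content was 63.6% for Egfr, 67.6% for Hbegf, 62.8% for Btc and 54.4% for Areg, against a median of 51.2% over all windows. These matches describe letters and no binding was measured.

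Egfr (ENSRNOG00000004332, chromosome 14), the receptor of EGF, TGF-alpha and amphiregulin, was a transcript of NRKE cells that fell at pH 6.0. In NRKE cells at pH 7.4 its lowest, median and highest levels were 28.6, 40.1 and 54.2 FPM, and at pH 6.0 they were 23.8, 24.8 and 29.9 FPM. The groups overlapped through A035 alone, the lowest sample at pH 7.4, which lay below the highest at pH 6.0. The log2 fold change was -0.65 (SE 0.14, edgeR adjusted p = 0.000440). Within sample group 1 it was -0.78 and within sample group 3 it was -0.51, and both passed the threshold. In NRKF cells Egfr had 5.48, 6.50 and 8.63 FPM at pH 7.4 and 4.74, 6.89, 7.64, 5.02 and 8.78 FPM in the 5 samples at pH 6.0. These groups covered each other, and the log2 fold change was -0.03 with a 95% interval of -0.37 to 0.30 (edgeR adjusted p = 0.911). The response of NRKE cells minus that of NRKF cells was -0.61 (interval -1.06 to -0.17, edgeR adjusted p = 0.0260). That difference missed the threshold without A021 and A051 (-0.54, edgeR adjusted p = 0.0540) and without A021 (-0.51), A054 (-0.55) or A056 (-0.50) alone (edgeR adjusted p of 0.0522 to 0.0670), and with scaling by library totals (-0.60, edgeR adjusted p = 0.0713). Ordered by mean, the levels fell from NRKE at pH 7.4 to NRKE at pH 6.0, with overlapping samples, and then without overlap to NRKF cells at either pH.

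Erbb2 (ENSRNOG00000006450, chromosome 10), the receptor without a ligand of its own, was the member that fell without overlap in both lines. In NRKE cells it went from 104, 123 and 142 FPM (lowest, median, highest) at pH 7.4 to 60.9, 73.1 and 92.6 FPM at pH 6.0, a log2 fold change of -0.74 (SE 0.10, edgeR adjusted p = 1.24e-06). Each sample at pH 6.0 was lower than each at pH 7.4. In NRKF cells it went from 67.3, 80.2 and 85.8 FPM to 49.99, 61.5, 52.6, 57.6 and 66.8 FPM, a log2 fold change of -0.45 (SE 0.11, edgeR adjusted p = 0.00273). The highest NRKF sample at pH 6.0 lay just under the lowest at pH 7.4. Within the sample groups the change was -0.60 (group 1), -0.91 (group 3), -0.55 (group 4) and -0.37 (group 6), and all 4 passed the threshold. The difference between the responses of the lines was -0.29 (interval -0.59 to 0.02, edgeR adjusted p = 0.123), so a difference in response was not shown. Without A024 it was -0.36 and passed (edgeR adjusted p = 0.0427). NRKE cells at pH 7.4 were highest, followed without overlap by NRKF cells at pH 7.4, whose samples overlapped those of NRKE cells at pH 6.0, and these overlapped NRKF cells at pH 6.0.

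Erbb3 (ENSRNOG00000004964, chromosome 7), a receptor for neuregulins, was found almost entirely in NRKE cells. In these it had 5.49, 12.5 and 14.98 FPM (lowest, median, highest) at pH 7.4 and 14.3, 18.4 and 21.8 FPM at pH 6.0. The ranges met, since the highest samples at pH 7.4 exceeded the lowest at pH 6.0. The log2 fold change of 0.63 (interval 0.01 to 1.26) missed the threshold (edgeR adjusted p = 0.0727), as it did within group 1 (0.38) and group 3 (0.95, edgeR adjusted p = 0.0523). It passed with NRKE cells modelled alone (0.72, edgeR adjusted p = 0.00547), without A021 and A051 (0.72, edgeR adjusted p = 0.0334), and without A042 or A051 alone (0.63 and 0.64, edgeR adjusted p of 0.0416 and 0.0418). NRKF libraries held 2 to 29 counts of Erbb3 at pH 7.4 and 0 to 16 at pH 6.0, or means of 0.416 and 0.368 FPM, and the level that 3 counts give in an NRKF library was 0.0999 to 0.203 FPM. The NRKF library with 29 counts was A051.

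Among the ligands, Tgfa (ENSRNOG00000016182, chromosome 4) had the largest rise in NRKE cells. TGF-alpha binds Egfr and is often made by the cells that carry the receptor. At pH 7.4 the NRKE samples had 0.226, 1.57 and 2.85 FPM (lowest, median, highest), from 4 to 68 counts, and at pH 6.0 they had 3.61, 5.15 and 7.43 FPM. All samples at pH 6.0 were above all at pH 7.4. The log2 fold change was 1.84 (SE 0.35, edgeR adjusted p = 8.63e-05), with 1.62 in group 1 and 2.43 in group 3. In NRKF cells Tgfa had 1.83, 2.41 and 4.31 FPM at pH 7.4 and 5.66, 7.87, 4.19, 4.22 and 5.06 FPM at pH 6.0, with overlapping ranges. The log2 fold change there was 0.90 (interval 0.17 to 1.62, edgeR adjusted p = 0.0569), and it was 0.94 in group 4 (edgeR adjusted p = 0.0541) and 0.97 in group 6 (edgeR adjusted p = 0.0357). It passed with DESeq2 (0.90, DESeq2 adjusted p = 0.0373) and with the sample group in the model (0.96, edgeR adjusted p = 0.00382). It also passed without each of A022 (0.90), A035 (0.89), A039 (1.04) and A040 (1.05), with adjusted p of 0.0228 to 0.0458 in the edgeR test. The responses of the lines differed by 0.95 (interval -0.08 to 1.97, edgeR adjusted p = 0.131), which did not pass. With the sample group in the model this difference was 1.00 and passed (edgeR adjusted p = 0.0235). At pH 6.0 both lines had close means, 5.33 ± 1.60 FPM in NRKE cells (SD, n = 6) and 5.40 ± 1.51 FPM in NRKF cells (SD, n = 5). In the order of means from NRKF and NRKE cells at pH 6.0 down to NRKF and then NRKE cells at pH 7.4, each condition overlapped the next.

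Hbegf (ENSRNOG00000018646, chromosome 18) encodes heparin-binding EGF, a ligand of Egfr and Erbb4. It fell in NRKF cells from 12.8, 13.8 and 17.7 FPM (lowest, median, highest) at pH 7.4 to 9.43, 8.60, 7.60, 9.02 and 7.39 FPM at pH 6.0, without overlap. The log2 fold change was -0.79 (SE 0.096, edgeR adjusted p = 9.95e-07), with -0.71 in group 4 and -0.85 in group 6. In NRKE cells the level was 66.3, 71.9 and 75.9 FPM at pH 7.4 and 56.04, 64.6 and 69.9 FPM at pH 6.0, with overlapping samples and a log2 fold change of -0.16 (interval -0.34 to 0.01, edgeR adjusted p = 0.101). The difference of 0.63 between the responses passed the threshold (interval 0.37 to 0.89, edgeR adjusted p = 0.000349). Ordered by mean, both NRKE groups came first, with overlapping samples, then NRKF cells at pH 7.4 and, lowest, NRKF cells at pH 6.0, with no overlap at either step.

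Btc (ENSRNOG00000002728, chromosome 14), the gene of betacellulin, fell in both lines and further in NRKF cells. There the samples went from 5.73, 8.02 and 12.1 FPM (lowest, median, highest) at pH 7.4 to 1.07, 2.13, 1.59, 1.26 and 1.67 FPM at pH 6.0. No sample at pH 6.0 came near the pH 7.4 range, and the log2 fold change was -2.43 (SE 0.27, edgeR adjusted p = 2.44e-07), or 5.40-fold lower. It was -2.60 in group 4 and -2.23 in group 6. In NRKE cells Btc went from 4.58, 9.39 and 12.0 FPM to 3.36, 4.63 and 6.53 FPM, a log2 fold change of -0.94 (SE 0.23, edgeR adjusted p = 0.000972). Here the groups overlapped through A035, the lowest sample at pH 7.4, which belonged to group 3. The change was -0.82 in group 1 and -1.13 in group 3. The response of NRKE cells minus that of NRKF cells was 1.49 (interval 0.78 to 2.20, edgeR adjusted p = 0.00128). NRKF cells at pH 6.0 were the lowest of the 4 conditions with no overlap, while the other conditions overlapped each other in order.

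Egf (ENSRNOG00000053979, chromosome 2) and Nrg1 (ENSRNOG00000010392, chromosome 16) fell in NRKE cells alone among the called changes. For both the difference between the responses of the lines was itself called. Egf, the founding ligand of the family, went from 2.15, 2.42 and 2.84 FPM (lowest, median, highest) to 1.10, 1.47 and 1.91 FPM in NRKE cells, without overlap, a log2 fold change of -0.75 (SE 0.18, edgeR adjusted p = 0.000782). In NRKF cells it had 2.57, 2.99 and 3.41 FPM at pH 7.4 and 2.45, 4.21, 2.52, 2.81 and 4.06 FPM at pH 6.0, with a log2 fold change of 0.10 (interval -0.26 to 0.47). Its NRKF samples at pH 6.0 thus reached below and above those at pH 7.4. The difference between the responses was -0.86 (interval -1.38 to -0.34, edgeR adjusted p = 0.00810). Nrg1, the ligand of Erbb3 and Erbb4, went from 5.24, 6.08 and 7.83 FPM to 2.95, 3.84 and 5.19 FPM in NRKE cells, where the highest sample at pH 6.0 lay under the lowest at pH 7.4. Its log2 fold change was -0.66 (SE 0.16, edgeR adjusted p = 0.000743). In NRKF cells Nrg1 had 4.13, 4.80 and 6.23 FPM at pH 7.4 and 6.27, 7.74, 5.08, 5.67 and 6.50 FPM at pH 6.0, with a log2 fold change of 0.31 (interval -0.02 to 0.64, edgeR adjusted p = 0.156). The difference between the responses was -0.97 (interval -1.44 to -0.51, edgeR adjusted p = 0.00118). Within sample groups 1 and 3 the falls were -0.59 and -0.97 for Egf and -0.78 and -0.57 for Nrg1, and all 4 passed. For Egf the NRKE samples at pH 6.0 were lowest of the 4 conditions, without overlap with the next, and for Nrg1 all neighbours in the order overlapped.

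Areg (ENSRNOG00000002754, chromosome 14), the gene of amphiregulin, gave different values in the sample groups of NRKE cells. Over all NRKE samples it had 1.999, 2.17 and 3.05 FPM (lowest, median, highest) at pH 7.4 and 0.4932, 1.15 and 3.38 FPM at pH 6.0, with a log2 fold change of -0.51 (interval -1.13 to 0.11, edgeR adjusted p = 0.148). In group 1 the 3 samples at pH 6.0 had 1.37, 2.23 and 3.38 FPM and those at pH 7.4 had 1.999, 2.13 and 2.21 FPM, a log2 fold change of 0.18 that did not pass (edgeR adjusted p = 0.651). In group 3 they had 0.4932, 0.838 and 0.938 FPM against 2.02, 2.21 and 3.05 FPM, a log2 fold change of -1.69 that did (edgeR adjusted p = 0.000313). The response in group 3 minus that in group 1 was -1.87 (interval -2.82 to -0.92, edgeR adjusted p = 0.0119), a call that 9.91% of 15478 tested genes received. Without A026, the group 1 sample at pH 6.0 with the highest level, this difference was -1.46 (edgeR adjusted p = 0.0529), and the fall over all NRKE samples was -0.95 (edgeR adjusted p = 0.00373). In NRKF cells Areg had 4.63, 5.67 and 8.72 FPM at pH 7.4 and 4.43, 4.15, 4.34, 4.80 and 5.22 FPM at pH 6.0, with overlap and a log2 fold change of -0.44 (interval -1.04 to 0.16, edgeR adjusted p = 0.274). Both NRKF conditions lay above both NRKE conditions without overlap.

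Ereg (ENSRNOG00000002771, chromosome 14), the gene of epiregulin, was a low transcript of NRKE cells. It had 1.19, 1.55 and 1.83 FPM (lowest, median, highest) at pH 7.4 and 1.36, 2.61 and 3.72 FPM at pH 6.0, from 21 to 98 counts per library. The rise of 0.76 on the log2 scale (SE 0.32, edgeR adjusted p = 0.0443) stood close to the threshold and missed it under 15 of 34 alternatives, among them the omission of A021 and A051 (0.78, edgeR adjusted p = 0.0639) and of any of A021, A023, A024, A025, A026, A033, A034, A035, A038 and A053 (0.63 to 0.79, edgeR adjusted p of 0.0504 to 0.110). It passed within group 1 (1.05, edgeR adjusted p = 0.0226) and not within group 3 (0.33, edgeR adjusted p = 0.490), and the difference between the groups did not pass (-0.72, edgeR adjusted p = 0.449). In NRKF cells at pH 7.4 each library held 1 to 5 counts of Ereg, 17 in all, and at pH 6.0 it was counted in A043 alone, with 3 counts. At this depth no fold is given for NRKF cells.

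**Figure D2:**
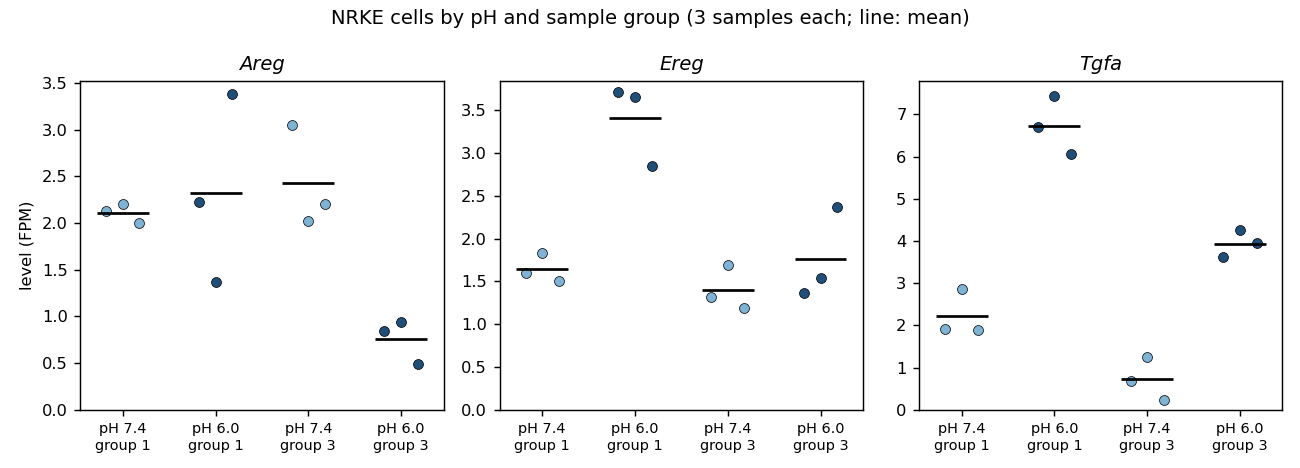
Levels of Areg, Ereg and Tgfa in FPM (vertical axis, from 0) in NRKE cells by pH and sample group, with 3 samples (points) and their mean (line) in each. The 3 samples at pH 6.0 of group 3 have the lowest Areg levels (0.4932 to 0.938 FPM), and Tgfa is higher at pH 6.0 in both groups.

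Of the sample group differences in NRKE cells, Areg was the only member called. For NRKF cells no member and none of all genes passed after adjustment with edgeR, while 624 genes (4.03%) and 1 member (Ereg) had an unadjusted p under 0.05, and DESeq2 called 10 genes.

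**Figure D3:**
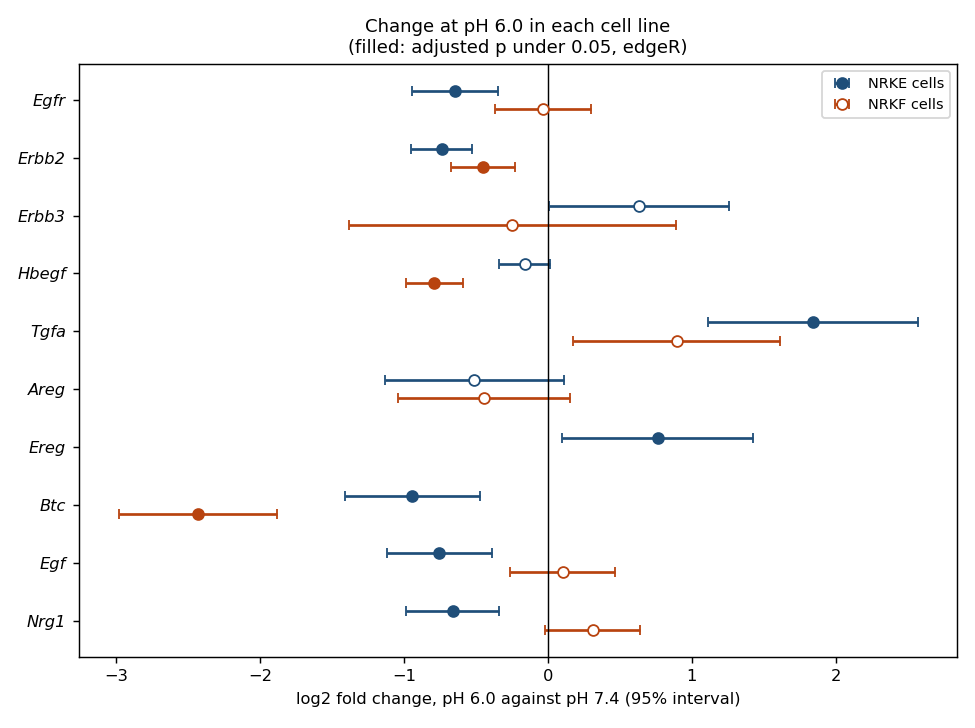
Log2 fold change of pH 6.0 against pH 7.4 (horizontal axis) with its 95% interval for each gene in NRKE and in NRKF cells. Filled points passed an adjusted p under 0.05, and Ereg in NRKF cells is left out since only 3 counts were seen at pH 6.0. Btc in NRKF cells (-2.43) and Tgfa in NRKE cells (1.84) lie farthest from 0.

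In the test of the difference between the responses of the lines 6 of 10 members passed (Egfr, Hbegf, Ereg, Btc, Egf, Nrg1), where 41.4% of all tested genes did. The log2 response, not the level, was higher in NRKE than in NRKF cells for 3 of these and lower for 3. Over all tested genes these shares were 16.8% and 24.7%. This contrast shares all samples with both responses, so it is not separate evidence for either. For Ereg, which passed the filter through NRKE cells alone, it rests on the 3 counts of A043. Its fitted value of 2.68 (edgeR adjusted p = 0.0165) becomes 5.30 when A043 is left out and is no measured fold. For Areg and Erbb3 the difference was not called, with intervals of -0.92 to 0.79 and -0.42 to 2.18.

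Between the lines at pH 7.4, 7 members differed, where 68.8% of all tested genes did (35% higher in NRKE cells, 33.9% lower), and at pH 6.0 9 members did, where 75.5% did (36.6% higher, 38.9% lower). The members split into 5 higher and 2 lower at pH 7.4 and into 6 higher and 3 lower at pH 6.0. No overlap between the lines was seen for 6 and 7 members, beside 50.7% and 57.3% of all tested genes. Each sample group holds cells of a single line, so line and sample group cannot be told apart, and these comparisons use the same samples as the responses to acid. All 3 receptors were higher in NRKE cells at both pH values. Egfr was 6.02-fold higher at pH 7.4 (log2 2.59, SE 0.15, edgeR adjusted p = 2.61e-13) and 3.93-fold higher at pH 6.0 (log2 1.97, edgeR adjusted p = 8.78e-11). Erbb2 was 1.57-fold and 1.29-fold higher, and its ranges overlapped at pH 6.0. Erbb3 was 27.2-fold and 50.1-fold higher by the fit, and summed over the libraries the ratio was 28.5 (1715 against 61 counts, counting interval 22.1 to 37.5) and 49.7 (2301 against 39 counts, 36.3 to 70.1). Because Erbb3 and Ereg passed the filter through NRKE cells alone, their calls between the lines were favoured by the filter.

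Among the ligands, Hbegf and Ereg were higher and Areg was lower in NRKE cells at both pH values. Hbegf was 4.88-fold higher at pH 7.4 (log2 2.29, SE 0.090, edgeR adjusted p = 1.65e-16) and 7.55-fold higher at pH 6.0 (log2 2.92, edgeR adjusted p = 9.28e-18). Ereg had 212 counts in NRKE and 17 in NRKF libraries at pH 7.4, a ratio of 12.7 per scaled total (counting interval 7.72 to 22.1), and 337 against 3 counts at pH 6.0, a ratio of 94.7 (32.1 to 461). Areg was 2.75-fold lower in NRKE cells at pH 7.4 and 2.88-fold lower at pH 6.0 (edgeR adjusted p of 8.52e-05 and 8.94e-05), and its ranges did not overlap at either pH. Tgfa was 1.94-fold lower at pH 7.4 (edgeR adjusted p = 0.0205) and not called at pH 6.0 (log2 -0.01, interval -0.72 to 0.70). The call at pH 7.4 was lost without A033, A039 or A040 (log2 of -0.81 in each case, edgeR adjusted p of 0.0529 to 0.0583). Btc, Egf and Nrg1 were called at pH 6.0 and not at pH 7.4. Btc was 3.14-fold higher in NRKE cells at pH 6.0 (edgeR adjusted p = 5.44e-06) and 1.12-fold higher at pH 7.4 (edgeR adjusted p = 0.535). Egf was 2.20-fold lower at pH 6.0 (edgeR adjusted p = 5.73e-06) and 1.21-fold lower at pH 7.4 (edgeR adjusted p = 0.152). Nrg1 was 1.56-fold lower at pH 6.0 (edgeR adjusted p = 0.000994) and 1.26-fold higher at pH 7.4 (edgeR adjusted p = 0.0617), where it passed without A022, A023 or A040 (log2 of 0.37 to 0.40, edgeR adjusted p of 0.0314 to 0.0471). When libraries were scaled by their totals alone, the median over all genes shifted by 0.19 at pH 7.4 and 0.21 at pH 6.0 towards NRKE cells, and the share of higher genes among those called rose from 50.8% (5166 of 10170 genes) to 62.0% (6371 higher, 3910 lower) at pH 7.4. The direction of all called members remained under that scaling, while at pH 7.4 the call of Tgfa was lost (-0.76, edgeR adjusted p = 0.0735) and Nrg1 was called (0.51, edgeR adjusted p = 0.0114).

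**Figure D4:**
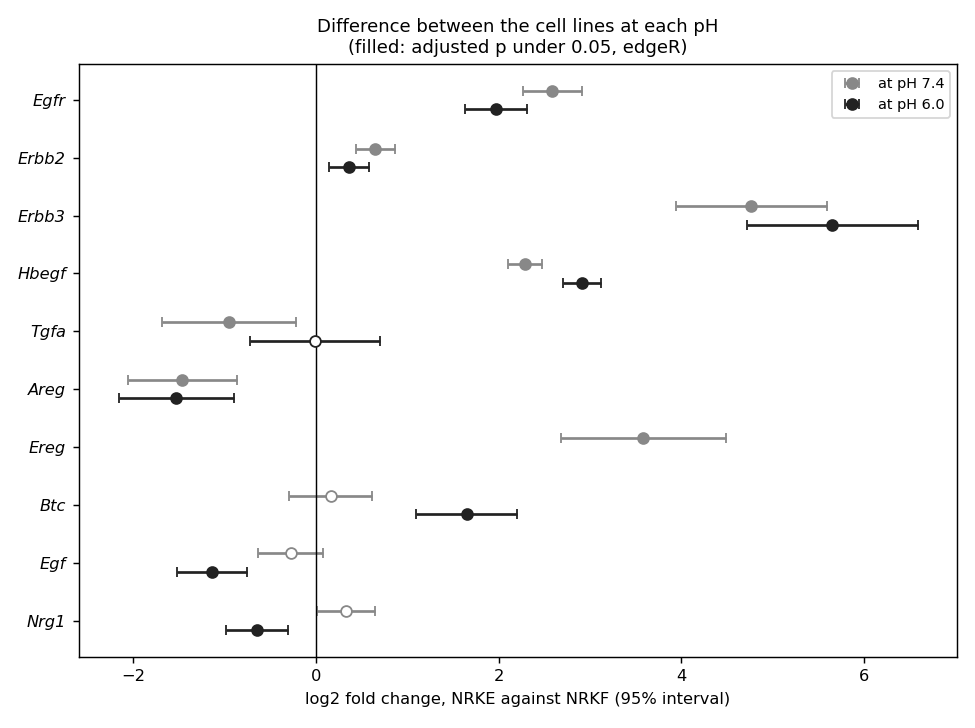
Log2 fold change of NRKE against NRKF cells (horizontal axis) with its 95% interval for each gene at pH 7.4 (grey) and pH 6.0 (black). Filled points passed an adjusted p under 0.05, and Ereg at pH 6.0 is left out for its 3 counts in NRKF cells. The receptors and Hbegf lie to the right of 0 at both pH values and Areg to the left.

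Btc, Areg and Ereg lie in a row on chromosome 14 and are followed by Epgn, the gene of epigen, as consecutive protein-coding genes between Parm1 and Mthfd2l in RefSeq. These neighbours had unlike profiles. Ereg and Epgn were counted mainly in NRKE cells, Areg was higher in NRKF cells, and Btc did not differ beyond its spread between the lines at pH 7.4. Epgn had 25 to 65 counts per NRKE library at pH 7.4 and 21 to 80 at pH 6.0, and in NRKF cells it had 4 counts, all in A051. Its change in NRKE cells was 0.05 on the log2 scale (interval -0.67 to 0.77). Epgn was picked for its position after its values were seen. Erbb4, the remaining receptor of the family, had 1 count in all 23 libraries together, and Nrg3 had none.

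The genes with the nearest profiles over the 23 samples were looked up among 11863 genes that averaged 1 FPM or more, by the root mean square difference of centred log2(FPM + 0.5). For Egfr these were Ptpn13 (0.21) and Klhl24 (0.26), where the median distance to all candidates was 1.23. For Erbb2 they were Pogz and Kdm5b (0.12 each, median 0.65), and for Erbb3 Plekha7 (0.33) and Exph5 (0.34, median 2.16). Hbegf was nearest to Pak1 (0.22) and Arhgap29 (0.25, median 1.36), and Tgfa to Mafg (0.40) and Dgka (0.41, median 1.01). For Areg they were Mxra7 (0.28) and Clec2g (0.29, median 0.94), for Ereg Ttll4 and Rhobtb3 (0.26 each, median 1.18), and for Btc Mcc (0.38) and Atp8b3 (0.41, median 1.05). Egf was nearest to Sufu and Arntl (0.16 each, median 0.62) and Nrg1 to Trmt6 (0.20) and Dixdc1 (0.21, median 0.58). How far such nearness reflects the cell lines and pH values that all genes share was not tested. Within the family, Egf and Nrg1 were the closest pair (0.37), followed by Egfr and Hbegf (0.44), and Areg and Erbb3 were the farthest apart (2.85). Egf and Nrg1 varied little around their own means (root mean square 0.41 and 0.32), so their distance was about as large as that variation. Egfr and Hbegf varied more (1.15 and 1.29), and their distance was small beside it.

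Of the other genes of the pathway, 79 were listed by role, 77 were in the table and 73 were tested. In NRKE cells 14 were higher and 33 lower at pH 6.0, so that 64.4% were called, near the 61.2% of all tested genes. In NRKF cells 7 were higher and 13 lower, so that 27.4% were called, near the 28.9% of all tested genes. The shares of the lists as a whole are therefore no result about them. The counts of single lists below stand beside 24.7% higher and 36.6% lower of all tested genes in NRKE cells. In NRKF cells these shares were 14.5% and 14.4%. No list was tested against them. Among other ligands and receptors, none of 3 tested genes (Epgn, Nrg2, Nrg4) passed in either line.

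The sheddases and their partners, which release ligands or regulate that release, had 2 higher and 6 lower of 9 tested genes in NRKE cells, and 1 higher and 1 lower in NRKF cells. Adam8 rose in both lines, from 17.6 ± 5.06 to 81.4 ± 11.9 FPM in NRKE cells (mean ± SD of 6 samples each, log2 2.21, edgeR adjusted p = 6.02e-08) and from 5.38 ± 3.08 to 14.3 ± 3.84 FPM in NRKF cells (6 and 5 samples, log2 1.40, edgeR adjusted p = 0.000324). Adam15 fell in both, by 0.86 and 0.40 on the log2 scale. In NRKE cells Adam9 fell by 1.22, and Rhbdf1, an inactive rhomboid protein that assists Adam17, rose by 0.18. Adam17 itself fell there without overlap (log2 -0.72, edgeR adjusted p = 2.94e-08). The call of Rhbdf1 was lost without A021 and A051 (0.16, edgeR adjusted p = 0.0822). It was also lost without any of A021, A024, A025, A026, A033 and A034 (0.13 to 0.17, edgeR adjusted p of 0.0568 to 0.107). Adam12 and Adam19 were also called lower in NRKE cells, where they had at most 17 counts per library at pH 7.4 and 0 at pH 6.0, against 456 to 1264 and 485 to 1173 counts in NRKF cells at pH 7.4. No fold is given for them, and without A021 and A051 the call of Adam19 was lost (edgeR adjusted p = 0.305). The call of Adam12 was lost within sample group 3 (edgeR adjusted p = 0.209). The median of the list in NRKE cells was -0.72, and with these 2 genes set to the level of 3 counts per library it was -0.28, against -0.12 over all genes. The value of -0.28 is the bound set for Adam12 and no measured change. Among the tested genes of the list with counts at pH 6.0, the middle value was that of Adam10 (-0.59).

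Adaptors and kinases of the cascade were called in both directions, 11 higher and 10 lower of 29 in NRKE cells and 3 higher and 7 lower in NRKF cells, with medians of -0.04 and -0.08. Pik3ca, a catalytic subunit of PI3K, rose in both lines (log2 1.18 and 0.34), and so did Map2k1, the MEK1 gene (0.66 and 0.17). The call of Map2k1 in NRKF cells was lost without A041 or A054 (both 0.15, edgeR adjusted p of 0.0523 and 0.0707) and within either sample group (0.19 and 0.15, edgeR adjusted p of 0.0849 and 0.139). Sos1, an activator of RAS, rose in NRKE cells (0.76), where it missed the threshold within group 1 (0.49, edgeR adjusted p = 0.101). The adaptor Shc1 fell by 0.88 in NRKE cells, with Stat5a (-0.71) and Map2k2 (-0.67), and Map2k2 missed the threshold within group 1 (-0.43, edgeR adjusted p = 0.0803). In NRKF cells the largest falls were those of the adaptors Nck1 (-0.62) and Gab1 (-0.40) and of the kinase Src (-0.40).

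Negative regulators of the receptors had 1 higher and 10 lower of 19 in NRKE cells, with a median of -0.52, and 0 higher and 4 lower in NRKF cells, with a median of -0.03. Spry1, an inhibitor of receptor signalling towards ERK, fell from 89.1 ± 10.4 to 23.1 ± 12.8 FPM in NRKE cells (mean ± SD of 6 samples each, log2 -1.95, edgeR adjusted p = 3.10e-07) and from 17.3 ± 1.77 to 9.74 ± 0.507 FPM in NRKF cells (6 and 5 samples, log2 -0.83, edgeR adjusted p = 0.0195). Cblc, an E3 ligase of the Cbl family, fell by 3.25 on the log2 scale in NRKE cells, from a mean of 2.85 to 0.277 FPM, and Sh3kbp1, a Cbl partner, fell by 2.68. Ptpn1, a tyrosine phosphatase, was the gene that rose in NRKE cells (0.50). Spry4 and Rnf41, an E3 ligase that targets Erbb3, fell in NRKE cells too (-1.57 and -0.58, edgeR adjusted p of 5.55e-09 and 7.98e-07). In NRKF cells their changes were -0.40 and -0.29, and both were called there. The call of Spry4 was lost without A021 and A051 (-0.36, edgeR adjusted p = 0.0945) and without any of A023, A039, A040, A042, A043, A051, A053, A054 and A055 (-0.43 to -0.32, edgeR adjusted p of 0.0505 to 0.133). Within sample group 6 neither Rnf41 (-0.24, edgeR adjusted p = 0.108) nor Spry4 (-0.32, edgeR adjusted p = 0.126) passed.

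Early ERK targets had 0 higher and 7 lower of 13 in NRKE cells, with a median of -0.36, and 3 higher and 1 lower in NRKF cells, with a median of 0.08. Over all tested genes 24.7% were higher and 36.6% lower in NRKE cells, and 14.5% and 14.4% in NRKF cells. Dusp6, a phosphatase of ERK, fell in both lines, from 7.65 ± 1.29 to 1.71 ± 0.449 FPM in NRKE cells (mean ± SD of 6 samples each, log2 -2.14, edgeR adjusted p = 2.37e-11) and from 63.8 ± 5.90 to 27.98 ± 3.88 FPM in NRKF cells (6 and 5 samples, log2 -1.19, edgeR adjusted p = 3.12e-07). The transcription factor gene Etv4 fell in NRKE cells (-2.16), where it was low (mean 1.32 FPM at pH 7.4), and Phlda1 fell there too (-1.18). Fosl1, a component of AP-1, rose in NRKF cells from 38.5 ± 3.06 to 112 ± 18.3 FPM (mean ± SD of 6 and 5 samples, log2 1.54, edgeR adjusted p = 1.45e-09). In NRKE cells Fosl1 had 2.09 and 2.20 FPM (log2 0.08, interval -0.23 to 0.39). Ier3 rose in NRKF cells (0.90) and fell in NRKE cells (-0.36), and Dusp5 rose in NRKF cells (0.41). The fall of Ier3 missed the threshold within group 1 (-0.23, edgeR adjusted p = 0.169), and the rise of Dusp5 missed it without A042 (0.33, edgeR adjusted p = 0.0541) and within group 6 (0.27, edgeR adjusted p = 0.132).

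**Figure D5:**
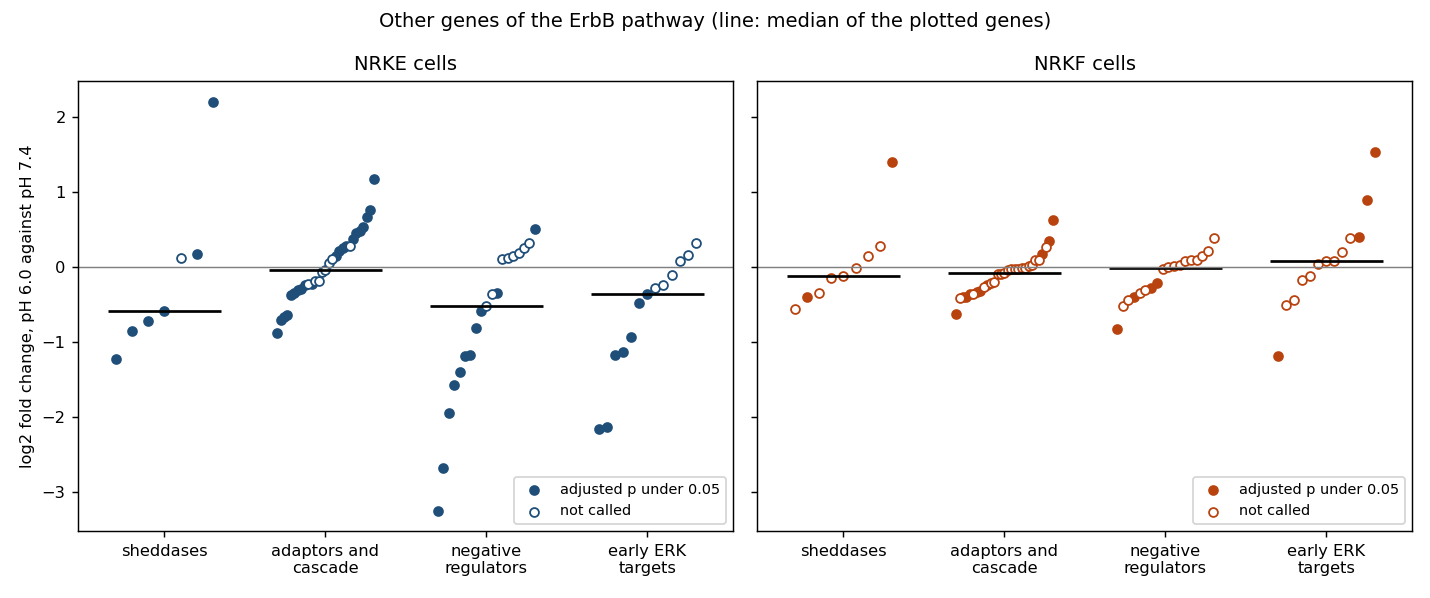
Log2 fold change of pH 6.0 against pH 7.4 (vertical axis) for the genes of 4 lists in NRKE cells (left) and NRKF cells (right), each point a gene, filled where it passed an adjusted p under 0.05, with the median of the plotted genes as a line. Adam12 and Adam19 in NRKE cells and Cblc in NRKF cells, with 0 counts in every sample at pH 6.0, are left out. Adam8 is the highest sheddase in both lines (2.21 and 1.40) and Dusp6 the lowest early target in NRKF cells (-1.19).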

How the data were processed

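Poly(A) RNA of rat NRKE and NRKF cells was sequenced in paired reads. The deposited table holds raw counts per gene, made by the authors with HISAT2 2.1.0 and featureCounts with multi-mapping reads counted. The study's methods name build rn7 and the submitters' processing notes rn6, and the strand setting is not given in the sources used here. Human samples and 13 columns that matched no label were not analysed here.

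Genes were filtered with filterByExpr (minimum count 10, minimum total 15) over 4 conditions, scaled by TMM and tested with edgeR 4.0.16 (quasi-likelihood test, Benjamini-Hochberg adjustment, threshold 0.05) in R 4.3.3. All 23 samples entered 1 model, so the conditions shared an estimate of the spread. The difference of the lines was a contrast of both responses, and sample groups were fitted as 8 conditions. Levels (FPM) are counts over the TMM-scaled total of the tested genes. Standard errors were derived from the fit. Counting intervals (95%) cover counting error only. On simulated counts (14394 genes) the test recovered 185 of 200 changed genes for the NRKE response, with 8 others called, and 91 of 100 for the NRKF response, with 4 others. Only well-counted genes were changed there, by more than most member changes called here, and all other genes were kept equal between conditions. The recovery therefore does not measure the power for small changes or low counts. Alternatives were other scalings, filters and tests, among them DESeq2 1.42.0, a sample group term, single lines or sample groups, and each library left out. The omission of A021 and A051 together was added after the data were seen.

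The text names all 10 members, of each pathway list up to 3 largest rises and falls per line among called genes, and the 2 nearest profiles of each member. Adam17 was given beside Rhbdf1 outside this rule. A pathway gene that this rule names is not reported here. The members and lists were chosen with earlier results of these data known. Promoter sequences are from RefSeq (GRCr8). Figures were drawn with matplotlib 3.10.9.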

Additional observations from a re-analysis of the deposited data

Results flagged for a closer look

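In 4 of 40 sets of values, each the samples of a condition for 1 gene, an end sample stood apart by Dixon's criterion, where chance gives about 1 in 20. These were Erbb3 in NRKF cells at pH 7.4 (A051, 1.10 FPM, next 0.42 FPM), Areg in NRKE cells at pH 7.4 (A033, 3.05 FPM), Ereg in NRKF cells at pH 6.0 (A043, 0.183 FPM, from 3 counts) and Btc in NRKE cells at pH 7.4 (A035, 4.58 FPM). For Ereg all other samples of the set were at 0, where any count would be flagged, so the rate of 1 in 20 does not apply.

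The response to acid differed between the lines by edgeR's test of that difference for 6 genes. NRKE minus NRKF, on the log2 scale, it was -0.86 for Egf, -0.61 for Egfr, 2.68 for Ereg, 1.49 for Btc, -0.97 for Nrg1 and 0.63 for Hbegf. The value of Ereg rests on 3 counts and is no measured fold. Between the sample groups of NRKE cells the response of Areg differed by -1.87 (edgeR adjusted p = 0.0119, with 0.00115 to 0.0529 over its alternatives), and the call was lost without A026.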

How the results depend on the processing

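Over 70 results for the members, 2143 values under alternatives were compared with those reported. The direction and side of the threshold remained in 2049, a call was lost in 25 and gained in 25, and the sign turned in 44. Of the 70 results, 45 kept direction and side under each alternative run. The 44 values belong to 15 results, and in none of them did the value pass the threshold as reported or under that alternative. The count of members called in NRKF cells was 3 and became 5 with the likelihood ratio test and 5 within sample group 6. That between the lines at pH 7.4 was 7 and became 4 with at least 10 counts in every sample, where fewer genes were tested. Leaving out each library in turn gave 6 to 8 members for the NRKE response, 3 to 4 for NRKF, 5 to 7 for their difference, 6 to 8 between the lines at pH 7.4 and 9 at pH 6.0. For the sample group difference in NRKE cells it gave 0 to 1. Of the pathway genes, 47 were called in NRKE cells (34 to 50 over the alternatives) and 20 in NRKF cells (14 to 26). The edgeR or DESeq2 adjusted p of Ereg in NRKE cells ranged from 0.00991 to 0.490, and that of Tgfa in NRKF cells from 0.00382 to 0.152. The mean of Hbegf in NRKE cells at pH 7.4 was 76.3 FPM by library total alone. The turned values, on the log2 scale, were for Tgfa between the lines at pH 6.0 0.023 with RLE scaling, 0.20 with library totals, 0.00069 without a filter and 0.018 with DESeq2. They were 0.18 for Areg in NRKE cells within group 1, and within group 6 0.10 for Egfr, -0.014 for Egf and -0.076 for Map2k2 in NRKF cells. Without A021 and A051 they were 0.36 for Erbb3 and -0.0066 for Map2k2 in NRKF cells and -0.0090 for Btc between the lines at pH 7.4, and Map2k2 was -0.036 with library totals. Leaving out each library gave ranges that crossed 0. In NRKF cells these were -0.15 to 0.063 for Egfr, -0.56 to 0.36 for Erbb3, -0.0096 to 0.18 for Egf and -0.10 to 0.11 for Map2k2, and in NRKE cells -0.016 to 0.13 for Fosl1. Between the lines they were -0.12 to 0.16 for Tgfa at pH 6.0, and for the difference of the responses -0.51 to 0.12 for Areg and -0.0032 to 0.071 for Src. For the sample group difference they were -0.12 to 0.045 for Hbegf in NRKE cells. In NRKF cells they were -1.20 to 5.87 for Erbb3 and -5.06 to 0.033 for Ereg, which rest on few or no counts, -0.19 to 0.31 for Tgfa, -0.060 to 0.41 for Areg, -0.053 to 0.93 for Btc, -0.60 to 0.18 for Egf and -0.28 to 0.022 for Nrg1. The cause of these changes was not tested. Adam19 gave no value within sample group 3 for want of counts. No paired analysis was possible because the replicate codes are not shared between the groups. Depth limited Ereg and Erbb3 in NRKF cells, where 3 counts equal 0.0999 to 0.203 FPM.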

Other observations

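Other neuregulins were low in both lines, and they are named here after their values were seen. Nrg2 had 6 to 26 counts per NRKE library at pH 7.4 and 7 to 22 at pH 6.0, against 0 to 5 and 0 to 4 in NRKF libraries. Nrg4 had 1 to 10 and 7 to 19 counts in NRKE libraries and 2 to 8 and 0 to 6 in NRKF libraries.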
